A study of Mus musculus with 8 samples.

Results

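A set of 7 genes of the antibody-secreting arm of the intestinal immune system was followed across all 8 arrays of the series: Igh-VJ558, Jchain, Pigr, Mzb1, Cd79a, Cd79b and Tnfrsf17. The set was chosen by gene name with the Ascl2 deletion ratios already known, so its deletion values are given as a description and carry no test. The 7 genes were represented by 17 of the 41174 probes (7 of 27574 gene names), of which 10 bore the name Igh-VJ558 and 2 the name Igj, the older symbol of Jchain. The array listed Mzb1 as 2010001M09Rik.

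In the deletion comparison, epithelial RNA of the small intestine from Ah-Cre/Ascl2floxed/floxed mice was set against that of Ah-Cre/Ascl2floxed/wt controls, 3 and 5 days after induction of Cre. Ascl2 is a transcription factor of intestinal stem cells. Both groups carried Ah-Cre, a recombinase under an inducible promoter, and the controls kept 1 floxed copy of Ascl2, although the sample labels call them wildtype. Each day held 1 pair of RNAs, and no source used here gives the number of mice behind them. In the sort comparison, GFPhi cells were set against GFPlo cells of Lgr5-EGFP-ires-CreERT2 mice, in which the promoter of the stem cell gene Lgr5 drives the green fluorescent protein. There were 2 sorts, each pooling 3 mice. Each pair of RNAs was hybridised on 2 arrays with the dyes swapped, which count as 1 replicate, and all values below are log2 ratios of deleted over control or of GFPhi over GFPlo unless called a level.

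Plasma cells in the intestinal wall make dimeric IgA, in which 2 antibody units are joined by the J chain, the product of Jchain. The dimer binds the polymeric immunoglobulin receptor, the product of Pigr, on the basal side of epithelial cells, is carried through the cell and is released into the lumen with part of the receptor attached. Pigr is thus a gene of the epithelium, while the other 6 are genes of B cells and plasma cells: Igh-VJ558 names a family of heavy chain variable segments, Mzb1 encodes a chaperone of the endoplasmic reticulum, Cd79a and Cd79b the signalling chains of the B cell receptor, and Tnfrsf17 the survival receptor BCMA of plasma cells.

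The promoters of Jchain and Pigr are shown because these are the joining chain and the receptor of the same secreted complex, and both were higher in deleted RNA on day 3. RefSeq's promoter table (GRCm38.p6) matched 4 of the 7 genes, Jchain, Pigr, Cd79a and Tnfrsf17, with 1 entry each. The 200 bases before the start site follow, 5′ to 3′ on the strand of the gene, at chr5:88527898-88528097 (minus strand) for Jchain and chr1:130826484-130826683 (plus strand) for Pigr, with the motif match in capitals.
Jchain: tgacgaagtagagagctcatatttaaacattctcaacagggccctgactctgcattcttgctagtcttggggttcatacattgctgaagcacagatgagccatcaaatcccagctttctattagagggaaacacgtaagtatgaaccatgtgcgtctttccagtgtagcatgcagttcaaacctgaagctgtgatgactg
Pigr: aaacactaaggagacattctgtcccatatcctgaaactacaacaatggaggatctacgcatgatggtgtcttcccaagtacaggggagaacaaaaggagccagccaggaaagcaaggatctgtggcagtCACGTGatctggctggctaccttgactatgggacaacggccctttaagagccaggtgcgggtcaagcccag

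The search covered both strands of the 250 bases before each start for 3 motifs: the octamer ATGCAAAT of immunoglobulin promoters, the E box CACGTG, and the interferon response core GAAANNGAA. The Pigr promoter held 1 E box, 71 bases before the start, a motif present in 6.02% of the 32851 promoters of the table. The Jchain window held no match to any of the 3. The octamer, found in 1.6% of all promoters, was not among the letters of any of the 4 matched promoters, and the interferon core, found in 7.13%, was among those of Tnfrsf17.

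The scanner found 55.0% to 66.9% of spots well above background in the deletion RNAs and 35.5% to 44.6% in the sorted RNAs. Ascl2 had ratios of -1.36 and -1.30 on the day 3 arrays and -1.34 and -1.29 on the day 5 arrays, and Lgr5 had ratios of 1.48 to 2.21 in the sorts. The epithelial markers Epcam, Vil1, Cdh1 and Krt8 were above background on every array. So were, on every deletion array, the leukocyte markers Ptprc, Cd52, Coro1a, Laptm5 and Cd53, whereas the endothelial markers Pecam1 and Cdh5 were on none. The B cell markers Ms4a1, Cd22, Pax5 and Blk were not above background on every array of either deletion RNA.

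The heavy chain probes named Igh-VJ558 differed in their ratios. The 3 brightest were about 3-fold higher in deleted RNA on both days, and the other 7 had means over the 2 days of 0.45 or below. The lowest mean, 0.01, was that of the probe nearest to these 3 on the chromosome. The 3 are of 1 cDNA, so cDNA, brightness and place in the locus cannot be told apart. In epithelial RNA of this kind, more cells of a type and more RNA per cell cannot be told apart. In the mouse heavy chain locus the variable segments lie at one end and the constant regions at the other, with the alpha constant region, which makes IgA, farthest from the variable segments. By the array's own coordinates (mm8), the 3 bright probes lie at chr12:113706582-113706899 and were designed on the cDNA BC004786. They sit 5.92 kb from a probe designed on AF029748, which the array describes as an alpha polypeptide, 47.4 kb from the nearest probe named Ighg and 160 kb from the nearest probe named Igh-6, the heavy chain of IgM. The remaining 6 lie 1.93 to 2.69 Mb away, on the side of the variable segments. No gene annotation of mm8 was used, so whether a probe lies in an exon is not analysed here.

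The brightest of the 3, probe A_51_P509679, had ratios of 1.35 and 1.61 on the day 3 arrays and 1.66 and 1.54 on the day 5 arrays. The second, A_51_P187645, had 1.17 and 1.79 on the day 3 arrays and 1.93 and 1.27 on the day 5 arrays. The third, A_51_P180159, had 1.62 and 1.49 on the day 3 arrays and 1.83 and 1.46 on the day 5 arrays. All 12 ratios were above 2-fold, and the days overlapped. The means were 1.54 ± 0.08, 1.54 ± 0.09 and 1.60 ± 0.06 over the 2 days (SD, n = 2 RNA pairs), which is 2.91-fold, 2.91-fold and 3.03-fold. The 3 probes share 1 cDNA within 258 bases and are therefore not independent measurements of the difference.

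The probe on AF029748 was above background on every deletion array and had ratios of 0.02 and -0.05 on day 3 and of 0.07 and 0.02 on day 5. Its level lay near that of the dimmest probes. The 4 probes on the variable side that were above background had day 3 means of 0.26 to 0.68 and day 5 means of 0.06 to 0.27. All 4 were higher in deleted RNA on each of the 4 arrays, and each had a lower mean on day 5 than on day 3. They were designed on BY724721, U39781, AF045501 and AK007163, and the highest, on U39781, an IgM heavy chain cDNA, had 0.64 and 0.73 on the day 3 arrays and 0.28 and 0.15 on the day 5 arrays. The last 2 probes, also on AK007163, were not above background on every array of either RNA and had means of 0.05 and 0.14. Their neighbour on AK007163, within 53 bases, had 0.42, so probes of 1 cDNA differed where the signal was dim.

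**Figure D1:**
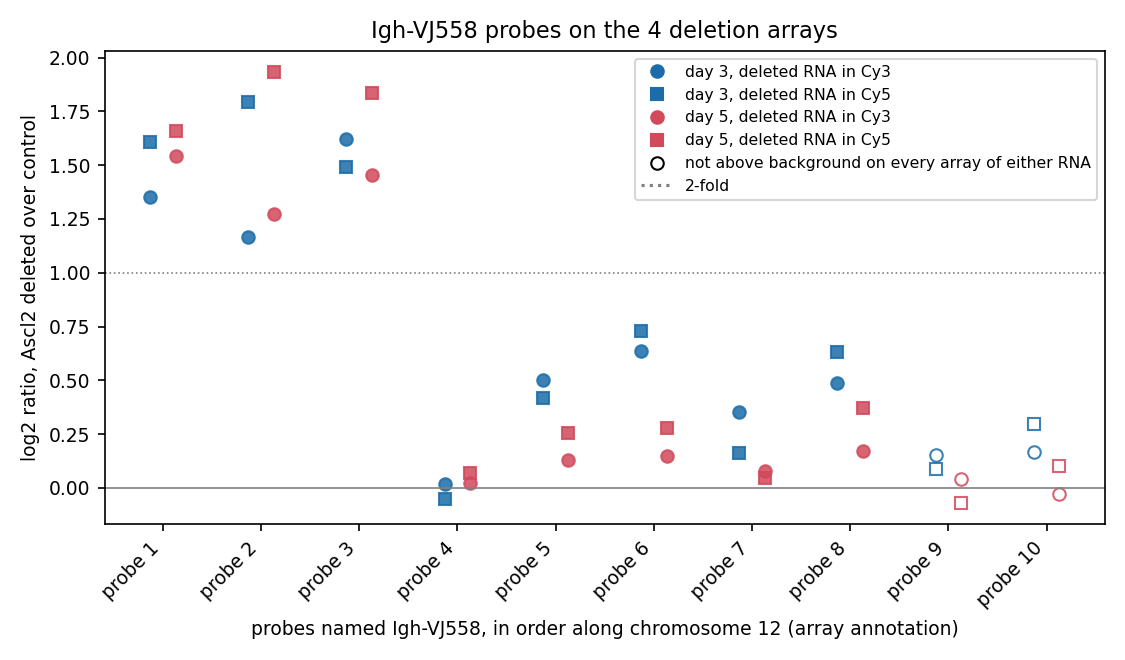
Log2 ratio of deleted over control RNA (vertical axis) for the 10 probes named Igh-VJ558, in their order along chromosome 12 (horizontal axis), with day 3 left of day 5 for each probe and 1 point per dye-swapped array. Probes 1 to 3 lie above the 2-fold line on all 4 arrays, probe 4 lies near 0, and the filled points of probes 5 to 8 are all above 0 and higher on day 3.

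The size of the difference at the probes on the variable side depended on the processing. With no background subtraction the 4 above background had day 3 means of 0.23 to 0.60, against 0.26 to 0.68 here. With the scanner's processed signals the day 3 means of the 4 variable-side probes were 0.94, 1.16, 0.82 and 1.10 for BY724721, U39781, AF045501 and AK007163. The probe on AF029748 stayed low there, at 0.21 on day 3 and 0.03 on day 5. The day 3 means of the 3 bright probes were 1.503, 1.548 and 1.535 and moved by less than 0.1. Which step of the scanner's processing made the difference was not tested. In the authors' deposited series matrix the bright probes had day 3 means of 1.48, 1.51 and 1.61 and day 5 means of 1.62, 1.66 and 1.71, and the probes on AF029748 and AF045501 had no value there.

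Jchain was higher in deleted RNA on all 4 arrays with both of its probes, and more so on day 3. Its brighter probe had 1.44 and 1.84 on the day 3 arrays and 0.99 and 0.61 on the day 5 arrays, a difference of 3.12-fold and 1.74-fold. The dimmer probe had 1.22 and 1.45 on the day 3 arrays and 0.92 and 0.26 on the day 5 arrays. The arrays of the 2 days did not overlap for either probe. Over the days the brighter probe averaged 1.22 ± 0.60 (SD, n = 2 RNA pairs) and the dimmer 0.96 ± 0.53. Both fell short of 2-fold on each day 5 array, and only the 3 bright Igh-VJ558 probes were at least 2-fold higher on all 4 arrays. With the scanner's processed signals the dimmer Jchain probe had day means of 1.99 and 0.97, against 1.33 and 0.59 here.

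Pigr, the receptor, was higher in deleted RNA on day 3 and not on day 5. It had 0.70 and 0.56 on the day 3 arrays and -0.23 and 0.20 on the day 5 arrays. The day 3 difference was 1.55-fold, and on day 5 the dye-swapped arrays differed in sign around a mean of -0.01. Its mean over the days was 0.31 ± 0.46 (SD, n = 2 RNA pairs). Its level in deleted RNA was 14.90 on day 3 and 14.49 on day 5, against 14.26 and 14.51 in control RNA.

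Mzb1, whose product helps to fold antibody chains, had 0.87 and 0.78 on the day 3 arrays and 0.14 and 0.12 on the day 5 arrays, for a mean of 0.48 ± 0.49 (SD, n = 2 RNA pairs). It was above background on all 4 arrays in deleted RNA and on 3 of 4 in control RNA, and the day 3 mean was 1.43 with the scanner's processed signals, against 0.83 here. Cd79b, 1 of the chains that carry the signal of the B cell receptor, had 0.64 and 0.57 on the day 3 arrays and 0.25 and 0.41 on the day 5 arrays, for a mean of 0.47 ± 0.20 (SD, n = 2 RNA pairs). Both genes were higher on all 4 arrays. The partner chain Cd79a was above background on 3 arrays in deleted RNA and 2 in control RNA and had a mean of -0.04. Tnfrsf17 was not well above background on any deletion array, so no fold is given for it.

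In total 13 of the 17 probes were above background in the deletion and 11 of these were higher on all 4 arrays, as were 12.4% of the 23071 probes above background on the whole array. Of the 13, 3 were at least 2-fold higher on all 4 arrays, as were 16 of the same 23071 probes (0.0694%). The choice of genes used this contrast, so these shares are given beside the counts and nothing is read from them. Across all genes tested in the deletion, 0 of 15879 (0%) passed limma's test at an adjusted p of 0.05, with 1532 at an unadjusted p under 0.05 and 256 past the adjusted threshold when all 8 arrays were fitted with the RNA pair as a random block.

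**Figure D2:**
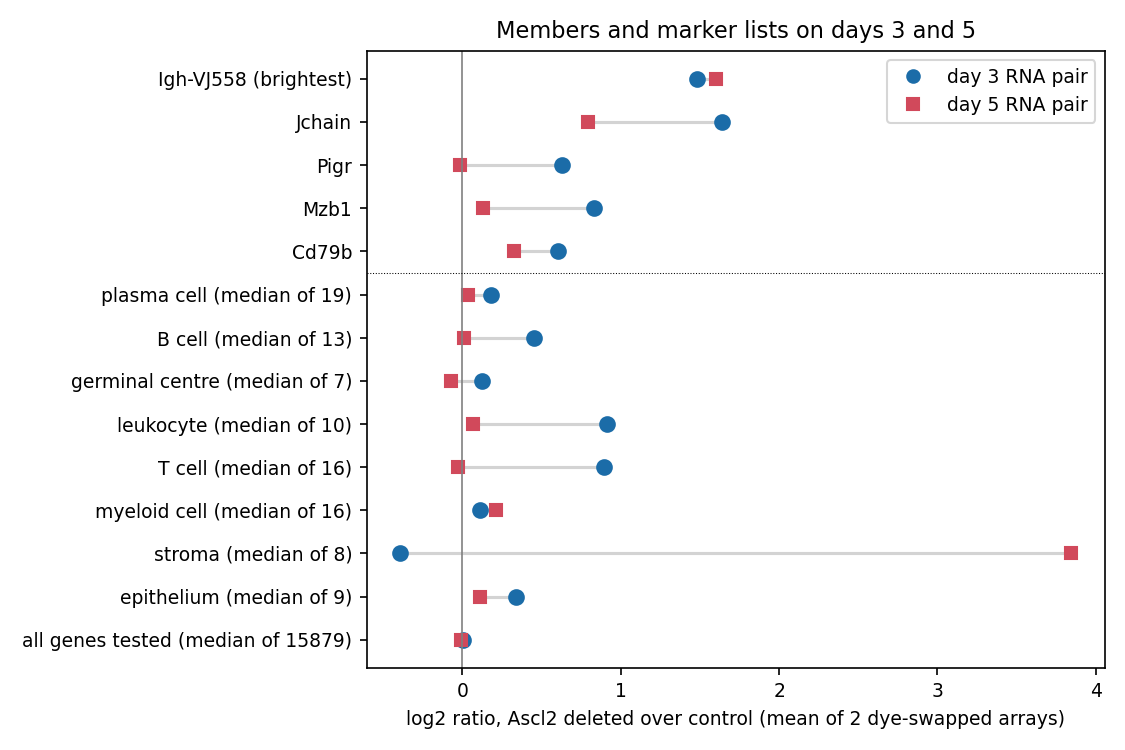
Log2 ratio of deleted over control RNA on day 3 (circles) and day 5 (squares) for 5 of the 7 genes (above the dotted line, brightest probe) and as the median of each marker list (below it). The bright Igh-VJ558 probe stays near 1.5 on both days. Jchain, Mzb1 and Cd79b are lower on day 5 than on day 3, and Pigr and the leukocyte and T cell medians lie near 0 on day 5.

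Among other genes of the plasma cell and B cell programs none passed limma's test in either comparison, nor did any gene of the other lists. Of 22 plasma cell genes, 19 were above background in the deletion, and 14 had a mean above 0. Their median was 0.16 (0.18 on day 3 and 0.04 on day 5), against -0.000934 over all genes tested. Their summed level was 30489 in deleted and 42139 in control RNA on day 3, the other way from the median, and 36837 in deleted and 30457 in control RNA on day 5. Prdm1, which encodes the transcription factor Blimp-1 that drives plasma cell formation, had day means of 1.03 and 0.13 (adjusted p = 0.53 by limma). Derl3, a component of the machinery that removes misfolded proteins from the endoplasmic reticulum, had -0.66 and -0.18 (adjusted p = 0.52 by limma). Edem1, of the same machinery, had 0.22 and 0.15, and the surface receptor Slamf7 had 0.18 and 0.04. Xbp1, the transcription factor of the secretory program, had 0.16 and 0.25, and Sdc1, which encodes the plasma cell marker syndecan-1 and is made by epithelium too, had -0.05 and -0.12.

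Of 27 B cell genes, 13 were above background and 10 of these had a mean above 0, with a median of 0.13 (0.46 on day 3 and 0.01 on day 5). Their summed level was 25166 in deleted and 16526 in control RNA on day 3, and 43131 in deleted and 36718 in control RNA on day 5. Cd74, the invariant chain of MHC class II, had day means of 1.48 and 0.26, and Tnfrsf13c, the receptor for the B cell survival factor BAFF, had 0.79 and 0.15. Both had 1 sign on all 4 arrays, and their adjusted p values were both 0.52 by limma. Of 7 germinal centre genes above background, S1pr2 alone had 1 sign on all 4 arrays, at -0.08, and the median of the list was 0.05.

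Probes of other immunoglobulin genes above background had day 3 means over 0, and on day 5 those of Igh-6 and Igl-V1 were lower in deleted RNA. There were 40 such probes with 25 names, and 10 were above background. Their median was 0.45 on day 3 and -0.38 on day 5, none was 2-fold higher on all 4 arrays, and 1 was higher on all 4. The brightest was a probe of Igh-6, the IgM heavy chain, with 1.14 and 1.24 on the day 3 arrays and -0.50 and -0.34 on the day 5 arrays. The next ones, 2 probes of Igl-V1, a lambda light chain segment, had day 3 means of 0.97 and 0.65 and day 5 means of -1.27 and -0.83. The fourth, A_51_P264922, had day means of 0.51 and -0.01; it bears the name of a kappa chain segment, but the array describes it as a mammary tumour virus sequence and places it on chromosome 12. A dimmer probe of the same name and description, A_51_P264914, had 0.27 and -0.10, and both are counted in the medians above. Without these 2 the medians of the other 8 were 0.52 on day 3 and -0.48 on day 5, a choice made after the values were seen. On day 5 the bright Igh-VJ558 probes, the Igh-VJ558 probe on the IgM cDNA U39781 and both Jchain probes were above 0, and the Igh-6 probe and the Igl-V1 probes were below it. The difference between the days was not tested, since each day is 1 pair of RNAs.

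**Figure D3:**
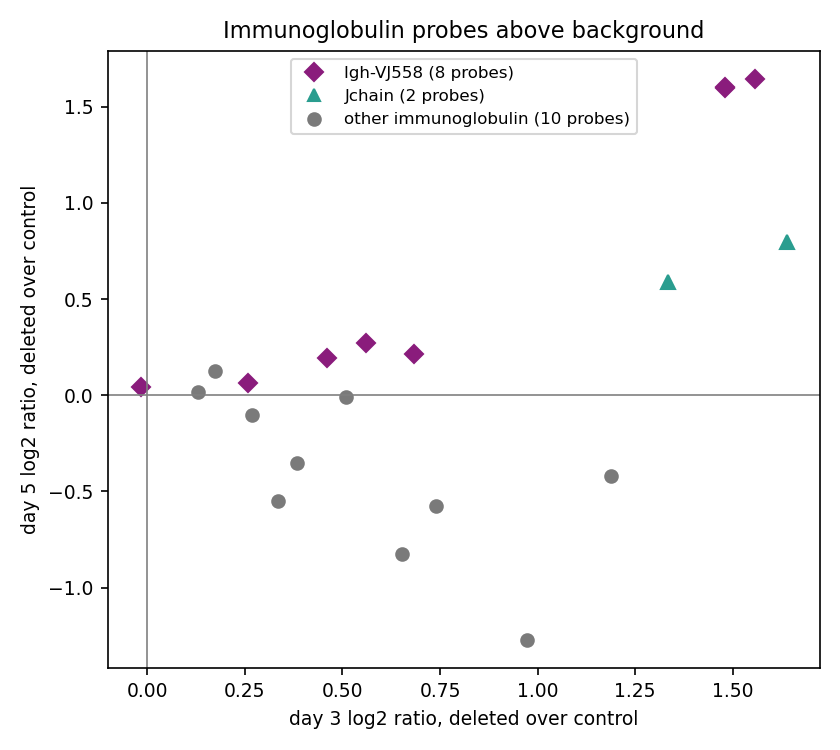
Day 3 log2 ratio (horizontal axis) against day 5 log2 ratio (vertical axis), deleted over control, for the immunoglobulin probes above background. The 3 bright Igh-VJ558 probes stand at the upper right, the Jchain probes below them, and 7 of the 10 other probes have values below -0.05 on day 5. Most of these 7 are probes of Igl-V1, and 1 is described as a viral sequence.

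Leukocyte and T cell genes had day 3 ratios above 0 by their medians, and none of either list passed the test. All 10 leukocyte genes were above background and had a mean above 0, with medians of 0.91 and 0.07 on days 3 and 5. Their summed level was 8375 in deleted and 4450 in control RNA on day 3, and 8829 in deleted and 8553 in control RNA on day 5. T cell genes, 16 of 18 above background, had medians of 0.90 and -0.03, and summed levels of 30678 in deleted and 12570 in control RNA on day 3 and of 36721 in deleted and 35481 in control RNA on day 5. The largest with 1 sign on all arrays were Gzmb, a granzyme of killer cells, at 1.46 and 0.45, Cd5, a T cell surface protein, at 0.77 and 0.65, and Thy1 at 0.62 and 0.02. Of the leukocyte genes, Arhgdib had 0.95 and 0.18, Cd48 had 0.90 and 0.15, Cd53 had 0.70 and 0.17 and Laptm5 had 0.43 and 0.23. On day 5 the bright Igh-VJ558 probes were at 1.60 to 1.64 and those on the variable side above background at 0.06 to 0.27. The Jchain probes were at 0.80 and 0.59, Cd79b at 0.33, Mzb1 at 0.13 and Pigr at -0.01. Whether a share of leukocytes contributed to the ratios of the 7 genes on either day was not tested.

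Connective tissue genes had the opposite order of the days. The 8 of 10 stroma genes above background had a median of -0.39 on day 3 and 3.84 on day 5, with summed levels of 8995 in deleted and 9146 in control RNA on day 3 and of 24415 in deleted and 5184 in control RNA on day 5. Col3a1, a fibrillar collagen, had -1.07 and 5.11. Vim, Lum and Acta2 had 1 sign on all 4 arrays, with day means of 0.35 and 1.53, 0.05 and 1.42, and 0.11 and 0.18. Plasma cells lie in the connective tissue under the epithelium, and the part of such tissue in the day 5 values was not tested. Of 16 myeloid genes, all above background, 12 had a mean above 0, and the list medians were 0.11 and 0.21. Their summed level was 19497 in deleted and 31824 in control RNA on day 3 and 40058 in deleted and 29740 in control RNA on day 5. The same sum was 63520 in GFPhi and 68716 in GFPlo RNA of sort 1, although only 5 of the 16 were tested in the sorts. It is therefore not read as an amount of myeloid cells. Adgre1, a macrophage marker, had 0.44 and 0.91, Tyrobp had 1.24 and 0.07, Fcgr3 had 0.56 and 0.32, and Aif1 had -0.54 and -0.19. The 9 epithelial genes had medians of 0.34 and 0.11, with Krt20 at 0.96 and 0.31, Cldn7 at 0.55 and 0.23 and Krt18 at -0.12 and -0.56. The 2 of 8 endothelial genes above background had a median of -0.08, and 7 of 8 mast cell genes had a median of -0.17 (-0.35 on day 3 and 0.13 on day 5), with Ms4a2 at -0.15 and -0.08. The summed level of the mast cell genes was 1143 in deleted and 2792 in control RNA on day 3, and 1787 in deleted and 1379 in control RNA on day 5.

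Genes for signals that draw IgA plasma cells to the gut, or that act on Pigr, had ratios on both sides of 0. Of 16 genes for IgA class switch and homing, 8 were above background and 6 had a mean above 0. Ccl28, a chemokine that attracts IgA plasma cells, had 0.32 and 0.22 on days 3 and 5, Tgfb1, which directs switching to IgA, had 0.29 and 0.13, and Aldh1a2, an enzyme that makes retinoic acid, had 0.03 and 1.92. Ccl25, a chemokine that draws lymphocytes to the small intestine, had 0.06 and -0.92, and Aldh1a1, another enzyme that makes retinoic acid, had 0.22 and -1.30. The summed level of the 8 was 116326 in deleted and 108002 in control RNA on day 3, and 60730 in deleted and 105963 in control RNA on day 5. Of 26 regulators of Pigr and genes of transcytosis, 25 were above background and 19 had a mean above 0, with a median of 0.07 (0.18 on day 3 and 0.04 on day 5). The interleukin 4 receptor chain Il4ra had 0.83 and 0.65 (adjusted p = 0.37 by limma). The other 3 with 1 sign on all arrays that were largest were Il17rc, a chain of the interleukin 17 receptor, at 0.51 and 0.34, the TNF receptor Tnfrsf1a at 0.59 and 0.17, and the interferon gamma receptor Ifngr1 at 0.67 and 0.06. Of 8 genes of M cells and follicle epithelium 6 were above background, and Tnfaip2, the only one with 1 sign on all 4 arrays, had 0.10 and 1.58.

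The genes whose ratios were most like those of each gene were found by the root mean square difference of log2 ratios. Over the 4 deletion arrays and 13075 candidate genes, the nearest to the brightest Igh-VJ558 probe were Tmem117, Wwc2, Xlr and Arg1, at differences of 0.27, 0.30, 0.31 and 0.36. Nearest to Jchain were Tcra, the T cell receptor alpha chain, Zbtb8os, Lhfpl2 and Pf4, at 0.16, 0.18, 0.21 and 0.27. For Pigr, over all 8 arrays and 8951 candidates, they were Phf21a, Sh3d19, Nr1i2 and Ubxn6, at 0.22, 0.24, 0.25 and 0.27. No member of the 7 was among the nearest of another.

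The sort ratios were tested, although the set was chosen with earlier results of these data known. Only Pigr and Cd79b were above background on every array of either sorted RNA. Pigr had 0.91 and -0.03 on the arrays of sort 1 and 0.09 and -0.47 on those of sort 2, with 2 of 4 arrays higher in GFPhi. Its mean was 0.12 with a standard error of 0.24 and a 95% interval of -0.54 to 0.79 (n = 2 sorts, adjusted p = 1.0 by limma, 0.686 to 1.0 over the alternatives). Without sort 1 the value was -0.19 and without sort 2 it was 0.44, so the sign rests on 1 sort. The interval from 2 sorts takes in differences of either sign, so no direction is given. The standard error pools the spread of both comparisons, the difference between the days included, and was 0.16 with the sorts fitted alone.

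Cd79b had -0.31 and -0.16 on the arrays of sort 1 and -0.07 and -0.04 on those of sort 2, lower in GFPhi on all 4 arrays, as were 16.2% of the 14428 probes above background in the sorts. Its mean was -0.14 with a standard error of 0.11 and a 95% interval of -0.46 to 0.17 (n = 2 sorts, adjusted p = 1.0 by limma, 0.354 to 1.0 over the alternatives). With the scanner's processed signals the value was -0.64 and in the authors' deposited series matrix -0.68, neither past the threshold. Across all genes tested in the sorts, 0 of 10430 (0%) passed, with 525 at an unadjusted p under 0.05, 38 with the RNA pair as a random block and 125 with the sorts fitted alone, and neither Pigr nor Cd79b was among those.

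The other 5 genes gave little signal in the sorted cells. The 3 bright Igh-VJ558 probes were above background on both arrays of sort 2 and neither array of sort 1, in GFPhi and GFPlo RNA alike, and their ratios on the 4 arrays ran from -0.25 to 0.08. Jchain, Mzb1, Cd79a, Tnfrsf17 and the other Igh-VJ558 probes were not well above background on any sort array. Leukocyte genes had summed levels of 2184 and 2317 in GFPhi and 2303 and 2278 in GFPlo RNA of sorts 1 and 2, and 4 of the 10 were tested there. Of the 11 plasma cell genes tested in the sorts, 9 had a mean below 0, with a median of -0.20. The largest were genes of the secretory pathway, which epithelial secretory cells use too: Creld2 at -0.82, Fkbp11 at -0.67, Xbp1 at -0.49 and Edem1 at -0.28, all lower on all 4 arrays, with adjusted p from 0.68 to 1.0 by limma. Of the 7 B cell genes tested, 6 had a mean above 0, with Cd74 at 0.46, Blnk at 0.32 and Bcl11a at 0.22, and Spib at -0.21.

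The level of the brightest Igh-VJ558 probe placed the RNAs in an order, which not all 3 bright probes shared. It was 13.57 in deleted RNA of day 5 (13.55 and 13.60 on its 2 arrays) and 12.88 in deleted RNA of day 3 (12.90 and 12.87). Control RNA of day 5 followed at 11.97 (11.89 and 12.06) and control RNA of day 3 at 11.40 (11.55 and 11.26). None of these 4 overlapped. The sort 2 RNAs were at 9.01 in GFPhi and 8.97 in GFPlo cells, whose arrays overlapped, and the sort 1 RNAs at 7.47 and 7.64 were not well above background. At A_51_P187645 day 3 was above day 5, at 11.51 and 11.43 in deleted RNA and 10.03 and 9.83 in control RNA, and the arrays of the days overlapped. A_51_P180159 had 11.07 and 11.22 in deleted RNA of days 3 and 5, and 9.51 and 9.57 in control RNA. Both deleted levels were above both control levels at all 3 probes.

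Jchain's level in deleted RNA was 9.39 on day 3 and 8.95 on day 5, against 7.75 and 8.15 in control RNA. The 2 deleted levels were both above the 2 control levels on every array. Cd79b followed another order: its highest levels were in GFPhi and GFPlo RNA of sort 1, at 9.53 and 9.76, and its lowest in control RNA of day 3, at 8.38. Its deleted RNA was at 8.99 on day 3 and 9.37 on day 5, against 8.38 and 9.04 in control RNA. Pigr was higher in all 4 epithelial RNAs, at 14.26 to 14.90, than in the 4 sorted RNAs, at 12.94 to 13.38. Each RNA pair had a slide of its own, so differences in level between pairs and between slides cannot be told apart.

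**Figure D4:**
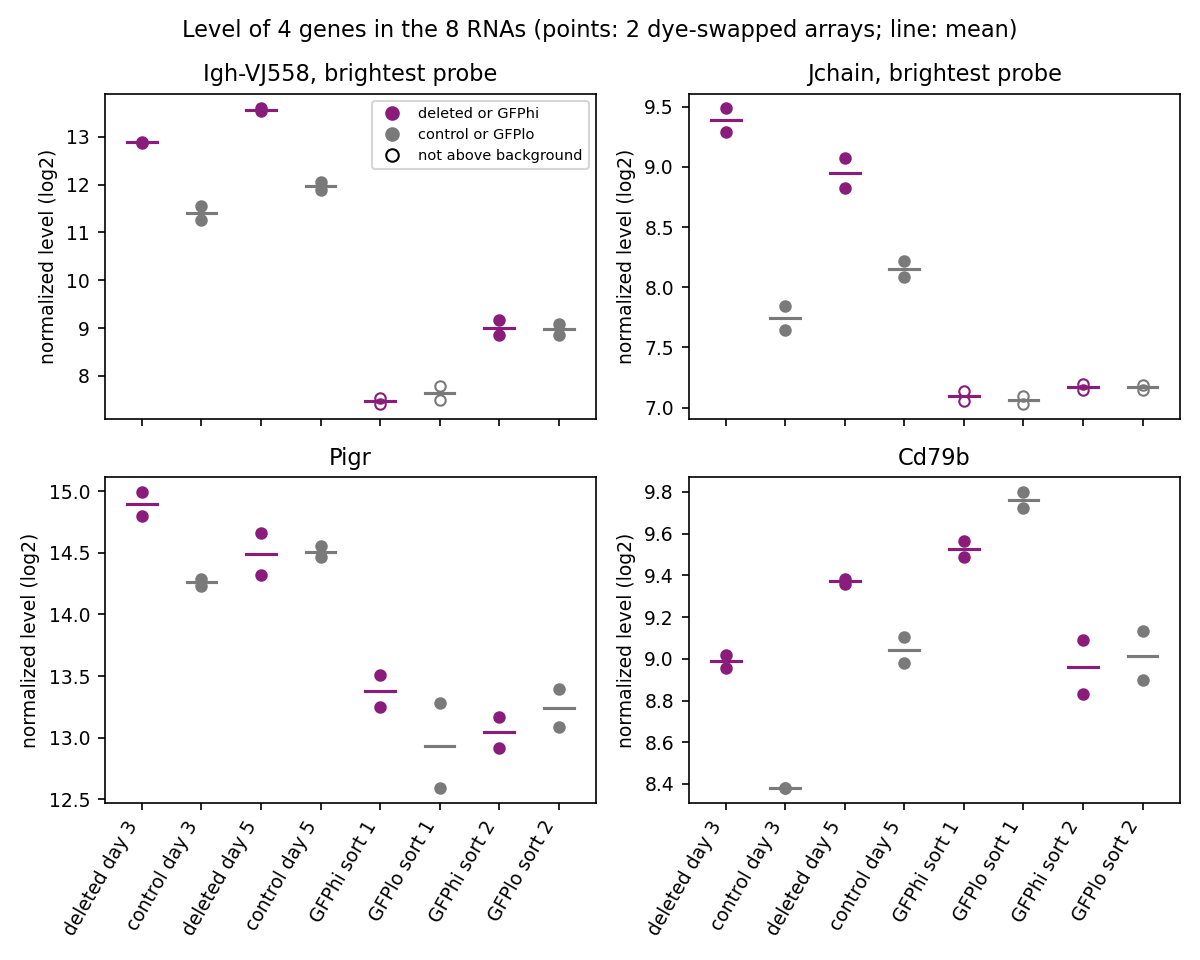
Normalized log2 level of the brightest Igh-VJ558 and Jchain probes and of Pigr and Cd79b (vertical axes) in the 8 RNAs (horizontal axis), with 1 point per dye-swapped array, a line at their mean and open points where the probe was not above background. Igh-VJ558 and Jchain are higher in deleted than in control RNA on both days, Pigr on day 3 only, and no panel separates GFPhi from GFPlo RNA in both sorts.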

How the data were processed

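The arrays were Agilent two-colour arrays quantified with Feature Extraction 9.5.3.1, per the file headers, with probe positions on mouse build mm8. The deposited scanner files hold spot intensity values, per the file headers, as mean foreground and median local background, besides processed signals and a log10 ratio (Cy5 divided by Cy3). The authors' deposited series matrix holds log2 ratios already turned to deleted over control or GFPhi over GFPlo; its centring and the spots left out are not stated. Annotation came from the day 3 files.

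Background was corrected with normexp (offset 50), followed by loess within arrays with controls at weight 0; outlier-marked spots were dropped, ratios turned by the labelled dyes and spots of a probe averaged. A gene was its brightest probe, tested where well above background on every array of 1 of the 2 RNAs. Levels are Aquantile-normalized channels, and a summed level adds their linear values over a list, so it follows the brightest genes of the list and is not a count of cells. The 4 RNA pairs were fitted in limma 3.58.1 (R 4.3.3), with Benjamini-Hochberg adjustment over all genes tested. The fit was tested on simulated data. p values measure the spread between RNA pairs, pooled over both comparisons. That spread includes the difference between day 3 and day 5, also in the standard errors of the sorts. With each comparison fitted alone, the standard error in the sorts was 0.16 for Pigr and 0.07 for Cd79b, against 0.24 and 0.11. Precision is limited by the number of RNA pairs. RefSeq (GRCm38.p6) gave names and promoters.

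The 7 genes and the lists were chosen with earlier results of these data known. Named are all 7, the listed genes that pass, up to 4 per list with 1 sign on all 4 arrays, the 4 brightest other immunoglobulin probes and the 4 nearest patterns. Xbp1, Sdc1, Col3a1, Ccl25, Aldh1a1 and A_51_P264914 were added after their values were seen. Alternatives were the scanner's processed signals, the series matrix, no background subtraction, marked spots kept, no filter on dim probes, a random RNA pair block, each comparison alone, other probe averaging and each RNA pair left out.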

Additional observations from a re-analysis of the deposited data

Results flagged for a closer look

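A group of 3 probes of the brightest other immunoglobulin genes had ratios in opposite directions on the 2 days, with both arrays of day 3 on one side of 0 and both arrays of day 5 on the other. The IgM heavy chain probe of Igh-6 was at 1.19 on day 3 and -0.42 on day 5. The 2 probes of Igl-V1 were at 0.97 and 0.65 on day 3 and at -1.27 and -0.83 on day 5. The difference between the days was not tested, because each day is 1 pair of RNAs.

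Among the 31 probes looked at in the sorts, 3 had 1 array far from the other 3. The gap over the range was 0.838 for Bcl11a, 0.883 for Irf2 and 0.832 for Krt8. Chance marks about 1 in 20 such groups, and the 4 arrays are dye swaps of 2 RNA pairs.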

How the results depend on the processing

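The genes passing limma's test numbered 38 in the sorts and 256 in the deletion with the RNA pair as a random block, and 125 in the sorts with each comparison fitted alone, where the deletion had 0. Leaving out 1 RNA pair gave 0 to 125 in the sorts and 0 to 6097 in the deletion (1186 without day 3, 6097 without day 5), since the 2 days then no longer enter the spread. The scanner's signals, the series matrix, no background subtraction, marked spots kept and no dim filter gave 0 in both comparisons. Probes of the 7 genes at least 2-fold higher on all arrays numbered 3 to 5 when a day was left out and 3 under every other alternative. Pigr in the sorts was between -0.19 (without sort 1) and 0.44 (without sort 2), and the cause was not tested. Of 96 other values of the 17 probes in the deletion, 83 stayed within 1 SD of the value given. That count says little, since leaving out 1 of the 2 days cannot move their mean by more than 1 SD. Keeping marked spots left the values of all 17 probes as given. The 13 values that moved further came from the scanner's processed signals or the series matrix. None of the 96 changed the sign of a probe with 1 sign on all arrays. The medians of all probes shifted by under 0.1 under each scaling. The slide could not be fitted as a block, as each slide holds 1 RNA pair. No paired analysis was possible because each value is already a ratio within an RNA pair, and the replicate numbers count dye-swapped arrays of 1 RNA pair in the deletion and sorts in the sort comparison, so they pair no samples across groups. Dim signal in the sorted RNAs limits the result most, as 5 of the 7 genes could not be tested there.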
